A study of Mus musculus with 8 samples.

Results

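The cells described here are tumor macrophages chosen by the summed RNA of Folr2, Fcrls, Ccl8 and Gas6, genes known from macrophages that settle in tissues. All 4 genes were found in 47 of 128, 101 of 276, 4 of 26 and 9 of 81 members of the 4 tumor pools named in what follows, and just 1 of the 4 in 16, 19, 10 and 20. They were chosen by UMI counts (unique molecular identifiers, 1 per captured RNA molecule) in the 2 tumor libraries. A barcode, which stands for 1 droplet and usually 1 cell, was a member if its C1qa, C1qb and C1qc UMIs summed to at least 10 and its Folr2, Fcrls, Ccl8 and Gas6 UMIs to at least 5 (hereafter the rule sum). In all, 511 barcodes were members, of 3041 tumor macrophages (C1q sum at least 10) with a genotype label, of 12330 labelled tumor barcodes and of 32121 barcodes kept in the whole series. The other 2530 tumor macrophages serve as comparators. Because UMIs of these same cells chose the members, every value of the 7 genes in the rule, and every difference between members and other macrophages, is a description without a test.

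Tissue macrophages either live on in an organ for long periods or are replenished from blood monocytes, and tumors hold both kinds. FOLR2 is a folate receptor on the macrophage surface, FCRLS is an Fc receptor-like protein, CCL8 is a chemokine that draws in leukocytes, and GAS6 is the bridge that ties phosphatidylserine on dying cells to the receptors MERTK and AXL. MRC1, the mannose receptor CD206, is a scavenger receptor often found on the same macrophages. C1qa, C1qb and C1qc encode the complement component C1q and are made by mature macrophages but hardly by fresh monocytes.

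The study sorted live CD45+CD11b+Ly6Chi cells, a gate set for monocytic myeloid-derived suppressor cells, from MC38 colon carcinomas or blood of C57BL/6J mice, male and female and 8 to 10 weeks old. Tumors were left untreated (control) or were irradiated with 20 Gy in 1 fraction (IR), and the cells were collected 3 days after that. WT mice were Ythdf2 fl/fl without Cre, and cKO mice were Lyz Cre+;Ythdf2 fl/fl, in which Cre is driven from the lysozyme locus that myeloid cells use; all mice thus carried the floxed allele. Cells of 5 mice were pooled per group and marked with a hashtag antibody to CD45 and MHC class I that differed between the genotypes, and both genotypes ran in 1 droplet library per tissue and treatment. Each of the 4 tumor pools described here (WT control, cKO control, WT IR and cKO IR) was therefore 1 sample with no replicate, no test was possible, and every interval given is a 95% interval for counting error only. IR and the library, and genotype and the pooled mice, cannot be told apart.

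Gene UMIs per library ranged from 51653956 to 87703837. Members held 1665543 UMIs in WT control (128 cells), 3269725 in cKO control (276 cells), 259021 in WT IR (26 cells) and 781631 in cKO IR (81 cells), so values of the WT IR pool are the least precise. The median member had 12211, 11022, 9600 and 8337 UMIs in the same order, and the median other macrophage 8968, 11095, 8226 and 7796. Nearly all member barcodes (128 of 128, 275 of 276, 26 of 26 and 80 of 81) also occurred in the matrix of the other tumor library, at a median of 0.447 to 0.588 of their own UMI count, but only 4, 6, 2 and 4 of them carried 20 or more hashtag UMIs in both. Shared barcodes were thus common and shared hashtags rare, and the part of the first in the results was not tested beyond leaving out the members with hashtags in both libraries.

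Ythdf2, the gene targeted in the cKO mice (chr4:132184912-132212303, reverse strand, mm10), went against its label. Its level in members was 99.7 CPM (a gene's UMIs over all UMIs of the pooled cells, scaled to a common total; 95% interval 85.1 to 116) in WT control and 54.0 CPM (29.5 to 90.7) in WT IR, but 614 CPM (588 to 642) in cKO control and 351 CPM (310 to 395) in cKO IR. The libraries count tags near the 3′ end of transcripts, and a tag outside the deleted part checks nothing. WT and cKO therefore mean "labelled WT" and "labelled cKO" throughout. Lyz2, where Cre sits (chr10:117277331-117282321, reverse strand), followed the labels, with 8579 and 9891 CPM in members labelled WT and 87.2 and 177 CPM in members labelled cKO. Xist had 0 UMIs in each of the 4 pools, which allows at most 11.6 CPM in the shallowest, and the Y-linked Ddx3y was at 64.5 to 116 CPM, although mice of both sexes are named in the methods.

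The promoters of Folr2, Fcrls and Ccl8 are shown first because their transcripts are part of the rule sum, and that of Gas6, also in the rule sum, is not shown. That of Mrc1 is shown as a macrophage gene outside the rule. Those of Isg15 and Ifit1 are shown because interferon response genes were among the most different after IR. Sequences are from the RefSeq promoter table, build GRCm38.p6, and run 5′ to 3′ on the strand of the gene from 250 bases before to 50 bases after the annotated start. The windows are chr7:101857141-101857440 (reverse strand) for Folr2, chr3:87263475-87263774 (reverse) for Fcrls, chr11:82114935-82115234 (forward) for Ccl8, chr2:14229164-14229463 (forward) for Mrc1, chr4:156200769-156201068 (reverse) for Isg15 and chr19:34640639-34640938 (forward) for Ifit1. Capitals in the 4 macrophage promoters mark TGCTGA, the core of MAF recognition elements, and capitals in the 2 interferon promoters mark 2 copies of GAAA with any 2 bases between them, the core of the interferon-stimulated response element (ISRE). Both strands were searched, and a match on the opposite strand appears as its reverse complement.
Folr2: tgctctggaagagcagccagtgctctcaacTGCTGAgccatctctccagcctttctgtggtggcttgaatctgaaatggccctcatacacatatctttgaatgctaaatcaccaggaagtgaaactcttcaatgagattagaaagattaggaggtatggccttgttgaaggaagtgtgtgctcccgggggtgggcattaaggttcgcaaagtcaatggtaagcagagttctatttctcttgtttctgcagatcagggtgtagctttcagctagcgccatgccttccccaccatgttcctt
Fcrls: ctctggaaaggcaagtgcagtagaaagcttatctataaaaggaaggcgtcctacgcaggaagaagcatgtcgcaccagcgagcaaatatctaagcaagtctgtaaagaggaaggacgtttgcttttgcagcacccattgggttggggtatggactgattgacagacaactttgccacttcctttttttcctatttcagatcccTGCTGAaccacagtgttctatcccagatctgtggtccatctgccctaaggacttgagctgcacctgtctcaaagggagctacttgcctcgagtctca
Ccl8: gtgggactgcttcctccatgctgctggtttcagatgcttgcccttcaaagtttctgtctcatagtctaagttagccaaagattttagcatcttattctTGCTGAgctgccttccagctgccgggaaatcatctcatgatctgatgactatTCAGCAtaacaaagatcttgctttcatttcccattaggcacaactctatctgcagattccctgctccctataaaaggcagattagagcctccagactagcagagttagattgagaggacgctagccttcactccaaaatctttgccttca
Mrc1: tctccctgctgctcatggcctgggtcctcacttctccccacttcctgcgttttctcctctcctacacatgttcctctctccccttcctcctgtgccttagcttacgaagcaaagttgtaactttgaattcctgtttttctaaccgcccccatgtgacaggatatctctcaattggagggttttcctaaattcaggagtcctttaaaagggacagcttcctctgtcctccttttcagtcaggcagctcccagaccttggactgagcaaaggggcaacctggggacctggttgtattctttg
Isg15: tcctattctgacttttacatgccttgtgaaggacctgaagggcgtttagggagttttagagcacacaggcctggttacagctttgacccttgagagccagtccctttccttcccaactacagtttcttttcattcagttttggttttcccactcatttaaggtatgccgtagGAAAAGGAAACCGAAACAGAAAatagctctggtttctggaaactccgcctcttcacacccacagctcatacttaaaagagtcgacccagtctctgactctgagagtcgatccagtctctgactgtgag
Ifit1: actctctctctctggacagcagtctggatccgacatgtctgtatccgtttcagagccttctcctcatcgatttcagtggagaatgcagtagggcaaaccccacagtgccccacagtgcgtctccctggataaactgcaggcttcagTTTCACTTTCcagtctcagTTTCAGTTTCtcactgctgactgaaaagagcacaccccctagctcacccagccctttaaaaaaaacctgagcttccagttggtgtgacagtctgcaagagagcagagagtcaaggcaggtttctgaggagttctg
TGCTGA began 220 bases before the start in Folr2, 47 in Fcrls and 152 and, on the opposite strand, 100 in Ccl8, and it did not occur in the Mrc1 window. The motif is short, and 19.5% of all 32851 promoter windows held it. By gene, with any of its windows, it was 21.7% of 27025 genes, 3 of the 4 genes of the rule sum and 11 of 21 genes of the resident list with a window. The ISRE core lay 78, 72 and 66 bases before the start of Isg15, as overlapping matches, and 104 and 85 bases before that of Ifit1 on the opposite strand. It was in 3.44% of all windows and by gene in 3.99% of all genes, 12 of 19 interferon response genes, 0 of the 4 genes of the rule sum and 1 of 21 resident genes. These are matches of letters and not shown to be bound.

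Members differed in which gene of the rule sum admitted them, and the difference ran between control and IR tumors. Fcrls (chr3:87250758-87263738, reverse strand) was at 403 CPM in WT control and 541 CPM in cKO control, and at 73.4 and 37.1 CPM in WT IR and cKO IR. Ccl8 (chr11:82115185-82116799, forward strand) went the other way, with 908 and 900 CPM in the control pools and 2811 and 2389 CPM in the IR pools. The level of Folr2 (chr7:101839988-101857194, reverse strand) stayed in a narrower range of 231, 198, 293 and 191 CPM in the order WT control, cKO control, WT IR and cKO IR. Gas6 (chr8:13465374-13494490, reverse strand) was at 155, 158, 77.2 and 89.6 CPM. The control pools were high in Fcrls and Gas6 and the IR pools in Ccl8, whichever the genotype label, whereas Folr2 kept no such order.

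As a share of the rule sum, Ccl8 made up 53.5% and 50.1% of its UMIs in the control pools and 86.4% and 88.3% in the IR pools. Without Ccl8 in the rule, 5 UMIs were still reached by 89 of 128 members (69.5%) of WT control and by 237 of 276 (85.9%) of cKO control, against 11 of 26 (42.3%) in WT IR and 21 of 81 (25.9%) in cKO IR. A few cells carried much of it, since 1 cell of WT IR held 34.9% of that pool's Ccl8 UMIs and another held 60% of its Gas6 UMIs. In single members, Ccl8 ranged from 0 over a median of 514 to 6931 CPM in WT control, and from 0 over 1444 to 23109 CPM in WT IR. Fcrls was found in 79.7% and 94.9% of control members and in 34.6% and 22.2% of IR members. The rule sum itself was alike, with medians of 14.5, 13, 14 and 13 UMIs, and at its threshold 55 macrophages just outside had 4 UMIs and 38 members just inside had 5.

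**Figure D1:**
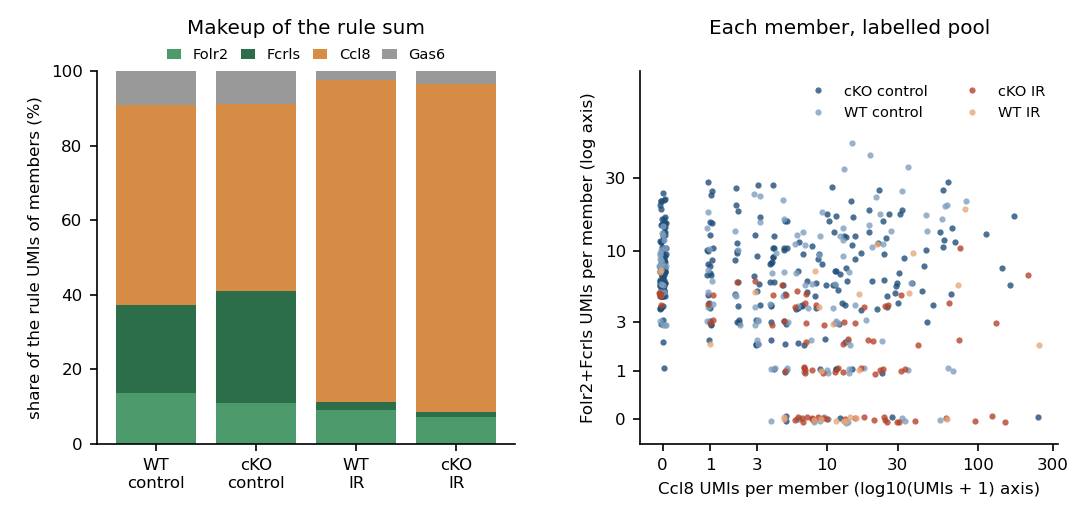
The left panel stacks the share of each of the 4 genes in the rule sum of the members (y axis, percent) for each labelled pool, and the right panel plots each member by its Ccl8 UMIs (x axis) and its Folr2 plus Fcrls UMIs (y axis), both on log10(UMIs + 1) axes. Ccl8 takes 50.1% to 53.5% of the bar in the control pools and 86.4% to 88.3% in the IR pools, and members of the IR pools lie mostly at low Folr2 plus Fcrls.

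Cells of other types showed little of this signal, but near-empty droplets held some of it. Among tumor barcodes rich in neutrophil RNA (43 in control and 474 in IR, median 2076 and 2083 UMIs) or lymphoid RNA (116 and 59, median 4961 and 3994 UMIs), 0 reached a rule sum of 5, which allows a share of up to 6.98% and 0.633% of the first and 2.59% and 5.08% of the second. Ccl8 was nonetheless found in 4.01% of the neutrophil-rich barcodes after IR. Barcodes of 10 to 99 UMIs held it at 342 CPM in control and 301.3 CPM in IR, beside 903 and 2494 CPM in Folr2 macrophages. The other macrophages were at 8.54 and 10.8 CPM, a low level that the rule set by keeping their rule sum under 5. In those other macrophages 6.35% and 6.09% of cells had a Ccl8 UMI. In blood, 0 of 9622 and 0 of 9237 barcodes met the rule, which allows up to 0.0312% and 0.0325%, and only 8 and 9 of them reached a C1q sum of 10.

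Lyve1, Cd163, Timd4 and Marco, which mark resident macrophages in other tissues, were rare among members, whereas Mrc1 was present in most. Lyve1, a hyaluronan receptor of perivascular macrophages, had a UMI in 3 of 128, 3 of 276, 1 of 26 and 0 of 81 members, and the hemoglobin scavenger receptor Cd163 in 9, 13, 2 and 2 of them. Timd4, a phosphatidylserine receptor of long-lived macrophages, was found in 1 member in all, and Marco in 0. A single WT IR member of 12224 UMIs carried 16 Lyve1, 13 Cd209f, 18 Folr2 and 79 Ccl8 UMIs. Mrc1 (chr2:14229392-14332057, forward strand) was present in most members, with 1, 1, 7 and 11 members lacking it in WT control, cKO control, WT IR and cKO IR. The markers of the label other than Mrc1 were those of the rule, so the cells are called Folr2 macrophages here after the rule alone, and not resident cells. The name does not say that each carried Folr2, since 41 of 128, 61 of 276, 12 of 26 and 28 of 81 members had 0 Folr2 UMIs.

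Among macrophages with a genotype label, Folr2 macrophages made up a larger share in the control tumors than in the irradiated tumors, and under each treatment a larger share under the cKO label. Members numbered 128 of 639 macrophages in WT control (20.0%, Clopper-Pearson interval 17.0% to 23.3%), 276 of 899 in cKO control (30.7%, 27.7% to 33.8%), 26 of 569 in WT IR (4.57%, 3.01% to 6.62%) and 81 of 934 in cKO IR (8.67%, 6.95% to 10.7%). The 4 intervals did not overlap. Barcodes with under 20 hashtag UMIs carry no label and are not in these shares. Of them, 79 of 7289 in the control library and 267 of 4919 in the IR library met the gene conditions, the opposite order to the shares. With 20 or more hashtag UMIs, 441 and 123 barcodes did. Nearly all member barcodes also occurred in the other tumor library, few with 20 or more hashtag UMIs in both. The unlabelled barcodes may thus repeat members of the other library, and they are not shown to be cells missing from the shares. How many repeat them was not tested. As a share of all kept barcodes of the pool the labelled members were 4.74%, 12.1%, 0.772% and 2.04%. Shares of a Ly6Chi sort depend on the gate, which cells low in Ly6C may leave, and fewer such cells and less of their RNA per cell cannot be told apart.

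Depth and the choice of genes moved the shares and, in one respect, their order. After each macrophage was thinned to 5000 UMIs, with shallower cells left out, the shares were 15.8%, 23.5%, 3.89% and 6.16%, and the intervals of the 2 IR pools (2.19% to 6.33% and 4.42% to 8.33%) then overlapped. With Folr2 and Fcrls alone at 5 UMIs or more, 74 (11.6%), 214 (23.8%), 10 (1.76%) and 15 (1.61%) macrophages remained, so the higher share of cKO against WT held in control tumors and not in irradiated tumors, while IR remained below control under both labels.

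**Figure D2:**
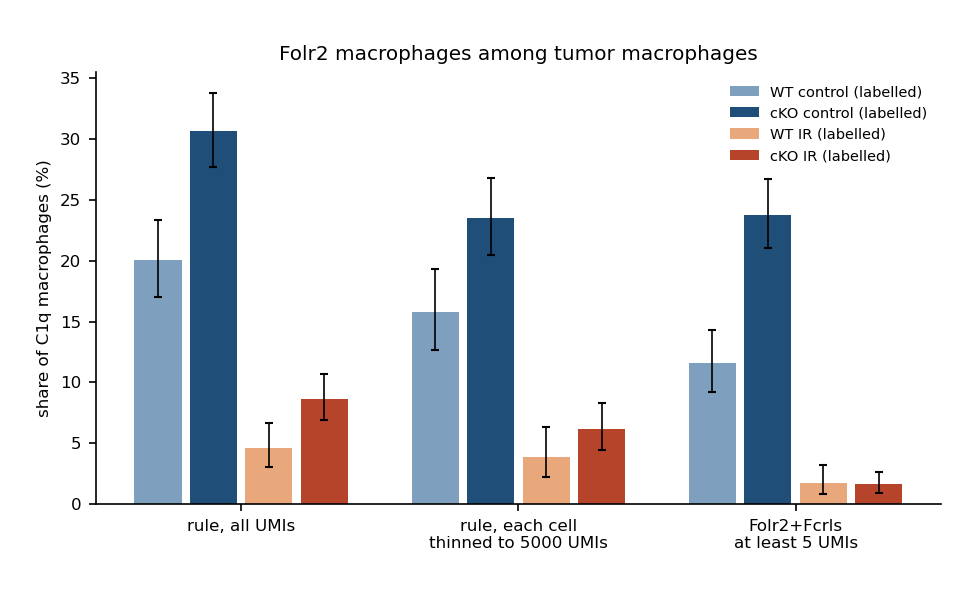
Bars give the share of C1q macrophages (y axis, percent) with a genotype label that were Folr2 macrophages in each pool by the rule, by the rule after thinning each cell to 5000 UMIs, and by Folr2 plus Fcrls alone at 5 or more UMIs; lines are 95% Clopper-Pearson intervals. The 2 control pools stand above the 2 IR pools by each definition, at 11.6% to 30.7% against 1.61% to 8.67%.

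Beyond the genes that chose them, Folr2 macrophages carried more Mrc1, Selenop, Timp2 and Apoe RNA than the other macrophages of the same pool, and less Ly6c2 and Ccr2 RNA, in each of the 4 pools. The 2 groups also differed in C1q, with median sums of 113.5, 119, 55 and 71 UMIs in members and 37, 53, 30 and 31 in the others, in the order WT control, cKO control, WT IR and cKO IR. The part of this gap in the differences was not tested. Genes were compared by the log2 ratio of summed CPM, and a gene was past the limit with at least 50 UMIs in the 2 groups together and a ratio of at least 1 in size. Of 6596 genes with 50 UMIs in all 4 pools, 40 were higher (0.606% of them) and 29 lower (0.44%) past the limit in every pool, the genes of the rule left out. With TMM factors in place of total UMIs, which shift the ratios by −0.12, −0.17, −0.20 and −0.22 in the 4 pools, 22 were higher and 60 lower. Since the members were selected by UMIs of these cells, the counts describe the selection and nothing is read from their size. Pool by pool, 4.87%, 4.77%, 5.4% and 5.16% of all measured genes were higher and 3.42%, 2.85%, 9.15% and 3.74% lower, in the order WT control, cKO control, WT IR and cKO IR.

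Among surface and secreted proteins, Mrc1 was at 1293, 1447, 1328 and 876 CPM in members against 184, 349, 141 and 287 CPM in the others, in the order WT control, cKO control, WT IR and cKO IR. The log2 ratios were 2.81 (2.70 to 2.92), 2.05 (1.98 to 2.12), 3.23 (3.04 to 3.42) and 1.61 (1.49 to 1.74). Members were higher in each pool, least so in cKO IR. Pf4, a platelet chemokine that macrophages also make, was at 3620, 2648, 11814 and 10944 CPM in members and at 669 to 1980 CPM in the others. Selenop, the plasma selenium carrier, was at 409, 480, 301.1 and 233 CPM against 38.0 to 85.0 CPM. Timp2, an inhibitor of metalloproteinases, was at 523 to 772 CPM against 55.0 to 105 CPM. All 3 were higher in members in each pool, with log2 ratios from 1.51 (Pf4 in cKO control) to 3.80 (Timp2 in WT IR).

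Of the lysosomal list, 4, 3, 5 and 3 of 16 measured genes were higher in members and 0 lower, with medians of 0.65, 0.35, 0.60 and 0.37. Of the lipid-associated macrophage list, 5 of 14, 3 of 14, 5 of 13 and 3 of 14 were higher and 0, 2, 1 and 0 lower, with medians of 0.39, 0.09, 0.48 and 0.30. Most genes of both lists were thus within the limit, and the following are leading single genes. Apoe, the apolipoprotein that carries cholesterol out of cells, was at 6996, 6253, 5150 and 5386 CPM in members and at 1733, 2212, 909 and 1010 CPM in the others, with log2 ratios of 2.01, 1.50, 2.50 and 2.41. Cd63, a tetraspanin of late endosomes, had ratios of 1.89 to 2.37. The lysosomal proteases Ctsb and Lgmn had ratios of 1.32 to 1.71 and 1.30 to 1.74, and Hgsnat, a lysosomal enzyme of heparan sulfate breakdown, of 1.67 to 2.28. Slc27a1, a fatty acid transporter, had ratios of 1.93 to 2.48 and Fcgrt, the neonatal Fc receptor, of 2.05 to 3.43. The serpin Serpinb6a (2.53 to 3.94), the surface protein Ms4a7 (2.06 to 2.64), the ribonuclease Rnase4 (1.46 to 2.46) and the transcription factor Etv1 (1.87 to 2.72) completed the 15 leading genes. In the small pools single cells weighed heavily, as 1 cell held 44.2% of the Serpinb6a UMIs of cKO IR members and 48.3% of the Hgsnat UMIs of WT IR members.

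Among the genes lower in members, Ly6c2, which encodes the surface protein of the sort and marks classical monocytes, was at 43.8, 6.12, 444 and 326 CPM in members and at 415, 120, 1647 and 1143 CPM in the others. The log2 ratios were −3.23, −4.26, −1.89 and −1.81, so members were lower in every pool but far from 0 after IR. Ccr2, the receptor through which monocytes leave the bone marrow, was at 107, 199, 154 and 146 CPM against 401 to 552 CPM. Inhba, which encodes the activin A subunit, had log2 ratios of −2.23 to −2.05, and Areg, an epidermal growth factor receptor ligand, of −3.27 to −1.01. The others of the 10 leading genes were Ly6i (−5.77 to −1.52), Cd24a (−3.42 to −1.65), Ifi205 (−2.56 to −1.49), Hopx (−2.30 to −1.51), Clec5a (−1.95 to −1.12) and Prdx6 (−1.40 to −1.19). Members of WT IR had only 1 Ly6i UMI and 3 each of Cd24a and Hopx, so the ratios there were wide, at −5.77 (−11.21 to −3.43), −2.66 (−4.99 to −1.14) and −2.30 (−4.62 to −0.78).

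**Figure D3:**
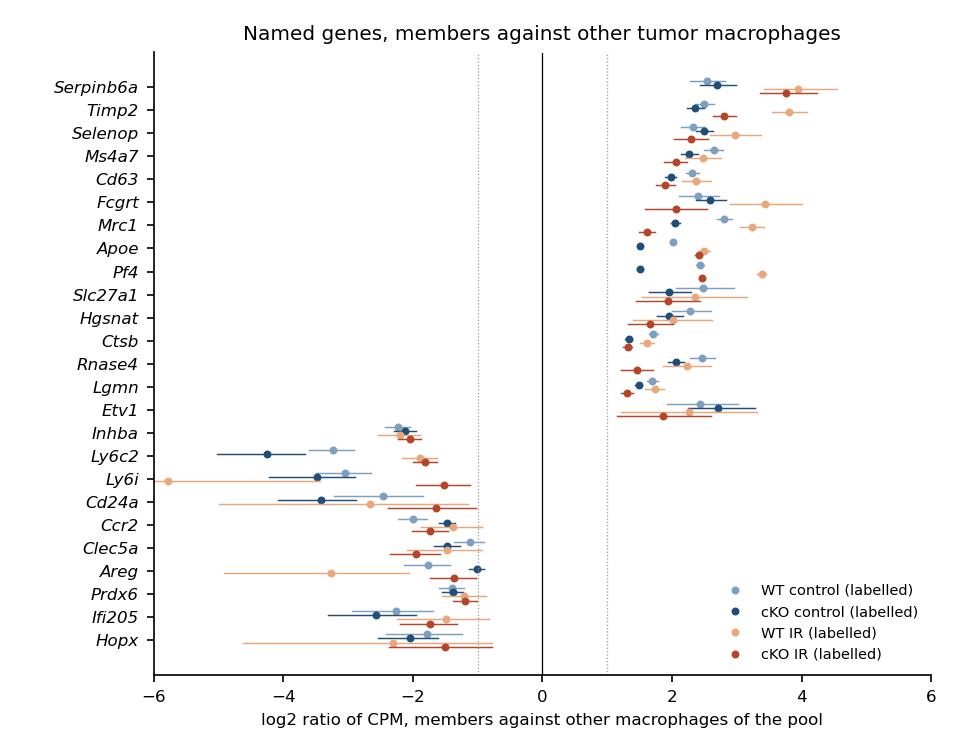
Each row is 1 of the 15 highest and 10 lowest named genes, points give the log2 ratio of CPM of Folr2 macrophages against the other macrophages of the same labelled pool (x axis), and lines are 95% intervals for counting error, drawn to at most 6 in size. Dotted lines mark the limit of 1 and −1, and the points of each gene lie beyond the same line in all 4 pools, from 1.30 to 3.94 for the higher genes and from −5.77 to −1.01 for the lower ones.

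By gene list, with genes of the rule left out, WT control members were past the limit in 13 of 18 measured resident and perivascular macrophage genes, 12 higher and 1 (Ccl24) lower. In the other pools 13 of 18 (cKO control), 9 of 13 (WT IR) and 7 of 14 (cKO IR) were higher and 0 lower. Over all measured genes the shares higher were 4.87%, 4.77%, 5.4% and 5.16%. The medians of the list were 2.30, 2.02, 1.58 and 1.05, beside −0.03 to 0.13 over all genes. Mrc1, Selenop, Pf4 and the transglutaminase F13a1 were higher in all 4 pools. The carbonyl reductase Cbr2 was at 137, 127, 131 and 33.3 CPM in members and at 1.45 to 7.40 CPM in the others, and Stab1, a scavenger receptor of macrophages and sinusoidal endothelium, at 349, 484, 216 and 141 CPM against 72.1 to 99.05 CPM. Their ratios were lowest in cKO IR, at 3.03 and 0.53. The transcription factor Maf was at 409, 481, 413 and 284 CPM against 66.3, 87.5, 150 and 197 CPM, with ratios of 2.62, 2.46, 1.46 and 0.53, and the other macrophages thus held more of it in the IR pools than in the control pools.

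Genes of apoptotic cell uptake were mostly within the limit, at 1 to 3 of 13 to 15 measured genes higher per pool. Mertk, the receptor that GAS6 engages, was the 1 gene of the list past the limit in all 4 pools, at 54.0, 49.5, 61.8 and 69.1 CPM in members and 13.7, 17.8, 21.6 and 32.3 CPM in the others. Axl, the other GAS6 receptor, was lower in members, with log2 ratios of −0.78, −0.52, −1.32 and −0.93, past the limit in WT IR. Of the growth factor and surface receptor list, Tgfbr2, the coreceptor Nrp1 and Adgre1 (F4/80) were past the limit in all 4 pools, with ratios of 1.07 to 1.58, 1.28 to 2.09 and 1.08 to 1.85. They are single genes of that list, whose other genes are not counted here, beside 0.606% of all measured genes higher in all 4 pools. Vcam1, an adhesion molecule that was in no list and was chosen after its values were seen, was at 202, 213, 61.8 and 78.0 CPM in members and at 1.79 to 21.8 CPM in the others.

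Some chemokine genes beside Ccl8 stood further from the other macrophages in control than in IR tumors. Those named here are single genes of the chemokine list, which is not counted against other macrophages. Ccl2, Ccl7 and Ccl12 lie with Ccl8 in 1 cluster on chromosome 11 (chr11:82035571-82116799 from the start of Ccl2 to the end of Ccl8) and draw in monocytes. Ccl12 was at 2600 and 2673 CPM in control members against 195 and 264 CPM in the others, log2 ratios of 3.73 and 3.34, and at 1598 and 1182 CPM against 632 and 777 CPM after IR, ratios of 1.34 and 0.61. Ccl7 had ratios of 2.44, 2.12, 1.31 and 0.69, and Ccl2 of 1.53, 1.21, 0.51 and 0.28. For each of the 3 genes the gap narrowed in the same order, with WT control widest and cKO IR least wide. Ccl4 was higher in control members (1.37 and 1.21) and within the limit after IR (−0.41 and −0.46).

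Class II genes, which present antigen to CD4 T cells, were lower in members, with 8 of 9 measured genes past the limit in WT control, 7 of 8 in cKO control, 4 of 8 in WT IR and 2 of 8 in cKO IR, beside 3.42%, 2.85%, 9.15% and 3.74% of all measured genes. The list medians were −1.66, −1.77, −0.97 and −0.86. H2-Aa was at 1459, 1080, 1417 and 1244 CPM in members and at 5391, 3988, 2645 and 2263 CPM in the others, so its level was similar in the members of each pool and lower in the other macrophages of the IR pools. H2-DMb1, which edits the peptides that class II molecules hold, was the only gene of the list past the limit in each pool. Of the monocyte and recruited-cell genes, 8 and 9 of 16 were lower in the control pools and 3 and 9 of 17 in the IR pools, and Ly6c2, Ccr2 and Vcan in all 4. Cx3cr1, a member of that list, was higher in members, at 210 and 336 CPM against 54.2 and 103 CPM in the control pools.

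Interferon response genes were lower in members by a median of −0.53, −0.76, −0.34 and −0.71, with 4 of 22, 6 of 22, 3 of 24 and 6 of 24 genes past the limit (3.42%, 2.85%, 9.15% and 3.74% of all genes) and 1 gene, Cmpk2, higher in WT control. Arg1, the arginase that depletes arginine, was at 3472, 3973, 6003 and 7415 CPM in members and 2728, 4309, 4921 and 6503 CPM in the others, within the limit in every pool. Nos2, which competes for the same substrate, was lower by −1.28, −2.23, −1.22 and −1.14. Of folate uptake and one-carbon genes, 0 of 9, 0 of 11, 0 of 4 and 1 of 7 were higher and 1 of 4 lower in WT IR, the last being Mthfd2. Of 11 to 12 measured complement genes in the control and cKO IR pools and 9 in WT IR, 0 to 3 were higher and 1 to 3 lower. Iron and heme genes were within the limit but for Hmox1 and Trf in WT control, Trf in cKO control, Hmox1 in WT IR and Tfrc in cKO IR. NF-kB target genes had medians of 0.08, 0.07, −0.38 and −0.57, with Traf1 lower in all 4 pools and Il1b in 3 of them.

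Folr2 macrophages were not uniform, and those admitted through Folr2 and Fcrls differed from those admitted by Ccl8 or Gas6 alone. Members with 5 or more Folr2 plus Fcrls UMIs were 74 of 128, 214 of 276, 10 of 26 and 15 of 81, and members with 0 were 14, 5, 10 and 25. In WT IR, Ly6c2 was at 79.0 CPM in the first and 929.5 CPM in the second, Plac8 at 285 and 2366 CPM, Isg15 at 403 and 2535 CPM, and Apoe at 7018 and 1123 CPM. In cKO IR the same genes were at 51.6 and 446 CPM, 321 and 1105 CPM, 985 and 2225 CPM, and 6399 and 5098 CPM. After IR the members without Folr2 and Fcrls thus held more Ly6c2, Plac8 and Isg15 RNA under both labels. Ccr2, another monocyte gene, was at 55.3 (22.2 to 114) and 278 CPM (176 to 417) in WT IR but at 166 (111 to 239) and 172 CPM (119 to 241) in cKO IR. Cbr2 was higher with Folr2 and Fcrls in each pool, at 191, 143, 229 and 85.9 CPM against 34.0, 10.4, 0 and 15.2 CPM. Mrc1 was not ordered alike, at 1569 against 463 CPM in WT control and at 956 against 1123 CPM in WT IR. Since the split used genes of the rule, it is a description of cells chosen and divided by the same UMIs.

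Irradiated members held more RNA of interferon response genes, of Ly6c2 and of Plac8 than control members under both labels, and less of Cx3cr1, Cyp51 and Tnf. The other macrophages moved the same way in the interferon response genes, Ly6c2, Plac8, Cx3cr1 and Cyp51. How Tnf and the NF-kB target genes changed after IR in those cells is not given, so neither is called particular to Folr2 macrophages. Under the WT label 179 of 4581 measured genes were higher (3.91%) and 421 lower (9.19%) past the limit. Under the cKO label 296 of 6818 were higher (4.34%) and 472 lower (6.92%). In both contrasts 113 genes were higher and 95 lower, and 4 had opposite signs. The 2 contrasts share no pool but compare the same pair of libraries, so they are not independent of the library.

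Of interferon response genes, 17 of 18 measured were higher past the limit under the WT label and 20 of 22 under the cKO label, with medians of 1.85 and 2.57. The shares of all genes called higher were 3.91% and 4.34%, and the medians over all genes were −0.12 and −0.09. Isg15, a ubiquitin-like modifier that interferon induces, was at 139 and 177 CPM in WT control and cKO control members and at 1444 and 1134 CPM in WT IR and cKO IR, log2 ratios of 3.37 (3.14 to 3.62) and 2.68 (2.53 to 2.83). Ifit1, an RNA sensor that blocks translation, was at 15.6 and 8.87 CPM in control and 255 and 155 CPM after IR, ratios of 3.94 and 4.05. The promoters of both, printed above, hold the ISRE core. Rsad2, the antiviral viperin, was at 155 and 49.5 CPM in control and 672 and 466 CPM after IR. The median control member had 0 Isg15 UMIs, and the median irradiated member 794 and 472 CPM under the WT and cKO labels.

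The same list was higher in the other macrophages too, 21 of 24 genes with a median of 2.17 under the WT label and 22 of 24 with 2.79 under the cKO label. Over all genes of the other macrophages 3.04% and 4.89% were higher. Interferon RNA was therefore not particular to Folr2 macrophages. With Folr2 and Fcrls alone in the rule, 5 of 9 and 14 of 17 measured interferon genes were past the limit, with medians of 1.03 and 1.93.

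Of the 10 genes highest after IR in both contrasts, Ly6c2, Plac8 and Ms4a4c mark monocytes, Ifit1, Isg15, Rtp4, Slfn1 and Slfn4 respond to interferon, and S100a8 and S100a9 encode calprotectin, the main cytosolic protein of neutrophils. Ly6c2 was at 43.8 and 6.12 CPM in WT control and cKO control and at 444 and 326 CPM in WT IR and cKO IR, with log2 ratios of 3.31 (2.90 to 3.78) and 5.63 (5.08 to 6.47). It was low in both control pools and high in both IR pools, though 16 of 26 and 51 of 81 irradiated members had 0 Ly6c2 UMIs. Plac8 was at 130 and 51.7 CPM in control and 1239 and 586 CPM after IR, and Ms4a4c at 55.8 and 22.0 CPM and 463 and 380 CPM. Slfn4, Slfn1 and Rtp4 had ratios of 3.76 and 5.19, 3.33 and 3.37, and 3.05 and 3.46. At least 3 UMIs of the 5 classical monocyte markers were found in 21.1% and 22.8% of control members and in 53.8% and 43.2% of irradiated members. In the other macrophages Ly6c2 was at 415 and 120 CPM in control and at 1647 and 1143 CPM after IR. Plac8 was at 904 and 239 CPM and at 2449 and 2099 CPM there, so these rises were not particular to Folr2 macrophages.

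S100a9 was at 3.60 and 5.20 CPM in control members and at 1023 and 408 CPM in irradiated members, and S100a8 at 9.01 and 5.51 CPM and at 703 and 207 CPM. An S100a9 UMI was found in 34.6% of WT IR members and 17.3% of cKO IR members. The 7 neutrophil markers summed to 29.4 and 22.3 CPM in control members and to 1834 and 700 CPM in irradiated members, with Ly6g at 0 in all 4 pools. In cKO IR 1 cell held 68% of the S100a9 UMIs. The 7 markers include S100a8 and S100a9, so a fall of their ratios without marker-rich members was built in. Without the 5, 2, 8 and 10 members that had 3 or more neutrophil-marker UMIs, an alternative added after the data were seen, the ratios were −0.03 (−5.49 to 2.81) and 0.89 (−0.69 to 2.41) for S100a8 and 2.55 (0.23 to 6.03) and 2.43 (0.90 to 4.77) for S100a9, from 1 to 15 UMIs a pool, and the interferon list kept 13 of 15 and 20 of 22 genes past the limit.

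Genes lower after IR included Cyp51, Idi1 and Stard4, which act in cholesterol synthesis and transport, and they were lower in the other macrophages too. Cyp51, which removes a methyl group from lanosterol, was at 142 and 164 CPM in control members and 19.3 and 39.7 CPM in irradiated members, log2 ratios of −2.81 (−4.51 to −1.63) and −2.03 (−2.62 to −1.52). Idi1, an isomerase upstream of squalene, had ratios of −3.14 and −1.75, and the sterol carrier Stard4 −3.38 and −2.22. Hmgcs1, Fdft1, Msmo1 and Sc5d of the same pathway, which were chosen after their values were seen, were also past the limit under both labels, at −2.24 to −1.05. The irradiated pools stood below the control pools in each, but WT IR members had only 1 UMI of Stard4 and 3 of Idi1, with intervals of −9.01 to −1.17 and −5.54 to −1.68. In the other macrophages, Cyp51 was at 121 and 152 CPM in control and 42.6 and 37.9 CPM after IR, ratios of −1.506 and −1.998. Idi1 had ratios of −1.66 and −1.96 there and Stard4 of −1.34 and −1.80, and no list of sterol genes was counted.

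The other 6 leading genes lower after IR were a mixed group. Cx3cr1, the fractalkine receptor, was at 210 and 336 CPM in control members and 19.3 and 16.6 CPM in irradiated members, ratios of −3.37 (−5.07 to −2.20) and −4.29 (−5.25 to −3.55). Tnfsf9, the ligand of 4-1BB, was at 177 and 429 CPM and at 15.4 and 60.1 CPM. Tnip3 (−2.70 and −2.15), the growth factor binding protein Igfbp4 (−2.23 and −1.95) and the cyclooxygenase Ptgs1 (−2.58 and −2.48) were lower as well. Retnla, a protein of alternatively activated macrophages, was at 43.8 and 23.5 CPM in control, where 1 cell held 65.8% and 77.9% of its UMIs, and had 0 and 1 UMIs after IR. In the other macrophages Cx3cr1 was at 54.2 and 103 CPM in control and at 9.55 and 7.83 CPM after IR. Igfbp4 was at 34.7 and 45.1 CPM and at 6.85 and 7.14 CPM there, so both were lower after IR in those cells too.

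**Figure D4:**
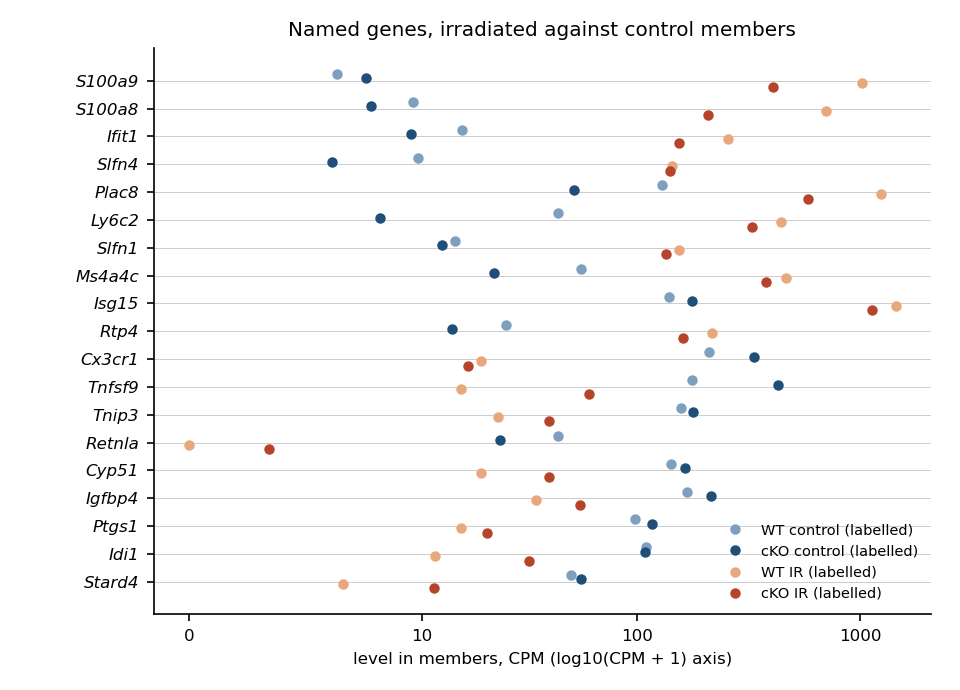
Each row is 1 of 10 higher and 9 lower named genes of the IR contrasts and points give its level in Folr2 macrophages of the 4 labelled pools (x axis, CPM, log10(CPM + 1) scale). For Isg15 the control pools lie at 139 and 177 CPM and the IR pools at 1444 and 1134 CPM, and for Cx3cr1 at 210 and 336 and at 19.3 and 16.6 CPM.

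Resident and perivascular genes were less uniform between the labels. Under the WT label 1 of 17 was lower (Retnla) and 3 higher (Pf4, Ccl24 and the fatty acid receptor Cd36), with a median of 0.01. Under the cKO label 7 of 18 were lower, among them Selenop, Cbr2, Igf1 and Stab1, and 2 higher (Pf4 and Cd36), with a median of −0.70. Pf4 had ratios of 1.71 and 2.05. Stab1 had ratios of −0.69 and −1.78 and Cbr2 of −0.07 and −1.92, but the difference between the labels was not tested. Members with 5 or more Folr2 plus Fcrls UMIs were 214 of 276 in cKO control and 15 of 81 in cKO IR. Within them, Selenop was at 515 and 286 CPM, Cbr2 at 143 and 85.9 CPM and Stab1 at 523 and 166 CPM. Igf1 was at 45.3 and 17.2 CPM, the last from 3 UMIs. The part of this change of makeup in the list was not tested. Of monocyte and recruited-cell genes, 5 of 13 and 7 of 14 were higher and 2 and 3 lower, with Fn1 and Cx3cr1 lower under both labels.

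NF-kB target genes were lower after IR in 3 of 16 measured under the WT label and 8 of 17 under the cKO label, with 0 higher in either and medians of −0.28 and −0.95, beside 9.19% and 6.92% of all genes lower. Tnf was at 303 and 650 CPM in control members and 147 and 105 CPM in irradiated members, ratios of −1.04 and −2.63. Il1a and Cd83 were also past the limit under both labels, with ratios of −1.17 and −2.09, and −1.07 and −1.46. Of proliferation genes, 7 of 11 and 4 of 14 were lower, beside the same shares of all genes. The cKO IR count includes 1 fibroblast-rich barcode with 12.1% of that pool's UMIs, which also carried most of its Pclaf UMIs. Without members rich in fibroblast RNA, 614 genes were lower under the cKO label in place of 472, and the proliferation count is not given. Mki67, which marks cycling cells, was at 100 and 127 CPM in control members and at 27.0 and 2.56 CPM after IR. The p53 targets Cdkn1a, Ccng1 and Phlda3 were higher under the cKO label (1.16, 1.48 and 3.13) and Mdm2 under the WT label (1.08). They are single genes picked from the p53 list, beside 4.34% and 3.91% of all genes higher under these labels. The list is not counted here, and values without the fibroblast-rich barcode are not given. No change of the list is therefore read from these genes. Of the lysosomal list, Ctsl was higher under both labels, at 1008 and 679 CPM in control and 3687 and 2624 CPM after IR. Of the hypoxia list, Nos2 and Egln3 were higher under both, and Arg1 was within the limit at 0.79 and 0.90. Class II genes had 0 of 6 past the limit under either label.

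Between the genotype labels, 144 genes of the control members and 172 of the irradiated members were past the limit. Of 7307 measured genes 84 were higher under the cKO label (1.15%) and 60 lower (0.821%) in control tumors. Of 2914 measured in irradiated tumors 135 were higher (4.63%) and 37 lower (1.27%). In both tumors 8 genes were higher and 6 lower, and 1 (Ly6i) had opposite signs. The deepest member of cKO IR held 94764 UMIs, 12.1% of that pool, with 111 UMIs of the 8 fibroblast markers and 22 C1q UMIs. Fibroblast markers summed to 37.8 and 138 CPM in the members of WT control and cKO control, to 0 in WT IR and to 150 CPM in cKO IR, with Lum at 0 in all 4 pools. Without the 1, 3, 0 and 1 members with 20 or more fibroblast-marker UMIs, 55 genes were higher and 28 lower in irradiated tumors. That was 83 in all against 113 in control tumors, under an alternative added after the data were seen. With all members, 2914 genes were measured in irradiated and 7307 in control tumors, so the 2 counts are not comparable as shares.

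The genes that followed the labels in both tumors started with those of the modified loci. Lyz2 was lower under the cKO label, with log2 ratios of −6.61 (−6.80 to −6.45) in control and −5.79 (−6.07 to −5.56) after IR. Lyz1, its neighbor and near copy on chromosome 10, was higher, at 437 and 246 CPM in cKO control and cKO IR against 15.01 and 15.4 CPM in WT control and WT IR. The part of reads that match both genes in its count was not tested. Ythdf2 was higher by 2.62 (2.39 to 2.86) and 2.65 (1.93 to 3.59). Of the other YTH readers of m6A, 0 of 4 measured were past the limit in control members.

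Areg was at 43.8 and 209 CPM in WT control and cKO control and at 19.3 and 90.8 CPM in WT IR and cKO IR, ratios of 2.24 (1.91 to 2.62) and 2.13 (0.94 to 3.90), from only 5 UMIs in WT IR. Tnfsf9 was higher under the cKO label by 1.28 and 1.84. Both were higher in the pools labelled cKO at each treatment as counted, but after thinning to 5000 UMIs the weaker ratio of Areg was −0.34. Il1r2, the decoy receptor of interleukin-1, was lower, at 37.8 and 8.26 CPM in control and 251 and 89.6 CPM after IR, as were Plac8 (−1.32 and −1.08), the cholesterol exporter Abcg1 (−1.93 and −1.14), Ctla2a (−1.41 and −1.64) and Ifitm1 (−2.43 and −1.20). The direction of Plac8 and Ifitm1 depended on the setting. With Folr2 and Fcrls alone in the rule, Plac8 was at 0.28 (−0.24 to 0.83) in control and 0.17 (−0.46 to 0.82) after IR, and its weaker ratio was 0.71 without Ccl8 in the rule and 0.82 after thinning. The weaker ratio of Ifitm1 was 0.69 with a rule sum of 10 and 0.86 without members that had hashtags in both libraries. Single cells carried Ctla2a and Ifitm1 in WT IR, with 83.9% of the Ctla2a and 77.9% of the Ifitm1 UMIs in 1 cell.

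Sparc, Cald1 and Pclaf belong to the leading genes mainly through single barcodes. Tnfrsf12a was also among the leading genes higher under the cKO label, and its values are not given here. Sparc and Cald1, matrix and cytoskeletal genes of fibroblasts, had 0 UMIs in WT IR members and 57 and 65 in cKO IR, of which 1 barcode held 98.2% and 98.5%. The replication factor Pclaf had 98.3% of its cKO IR UMIs in 1 barcode. Without members of 20 or more fibroblast-marker UMIs, 1 UMI of Sparc, 1 of Cald1 and 1 of Pclaf remained in cKO IR, against 0, 0 and 4 in WT IR (ratio for Pclaf −2.30, −9.03 to −0.07), and 7 of the 14 named genes remained past the limit in both tumors. The proliferation list, with 4 of 6 genes higher and a median of 1.29 in irradiated tumors, had 0 of 3 past the limit and a median of −0.09 without those members.

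Interferon response genes were lower under the cKO label in control members, where 6 of 19 measured were past the limit (Ifit2, Ifit3, Rsad2, Irf7, Oasl2 and Xaf1) and the median was −0.67, beside 0.821% of all genes lower and a median of 0.04. In the other macrophages of the control tumor 0 of 22 were past the limit (1.27% of all genes lower) with a median of −0.53, and in irradiated members 0 of 22 with a median of −0.26. Rsad2 was at 155 CPM in WT control and 49.5 CPM in cKO control, a ratio of −1.64 (−1.94 to −1.36), and Irf7, a transcription factor of the interferon response, at 66.0 and 26.3 CPM (−1.31, −1.75 to −0.91). Whether members and other macrophages differed in this was not tested. With Folr2 and Fcrls alone in the rule, 5 of 16 were past the limit with a median of −0.32.

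The NF-kB list had 2 of 17 genes higher under the cKO label in control members, Tnf at 303 and 650 CPM (1.10, 0.96 to 1.24) and Il6 at 19.8 and 50.2 CPM (1.32, 0.79 to 1.93), and 1 of 14 lower (Icam1) in irradiated members. Of chemokines, Ccl4 (1.20) and Cxcl10 (1.09) were higher in cKO control and Ccl5, Ccl6, Ccl17 and Cxcl3 lower, and 0 of 15 were past the limit after IR. Of resident and perivascular genes, 0 of 19 were past the limit in control members, with a median of −0.07, and 3 of 11 were lower after IR (Cbr2, Ccl24 and Cd36). Class II genes were within the limit in both tumors, at medians of −0.47 and −0.16. Folr2 macrophages labelled cKO and WT were thus within the limit of 1 for each measured gene of the resident list in control tumors, which does not show that they were the same.

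**Figure D5:**
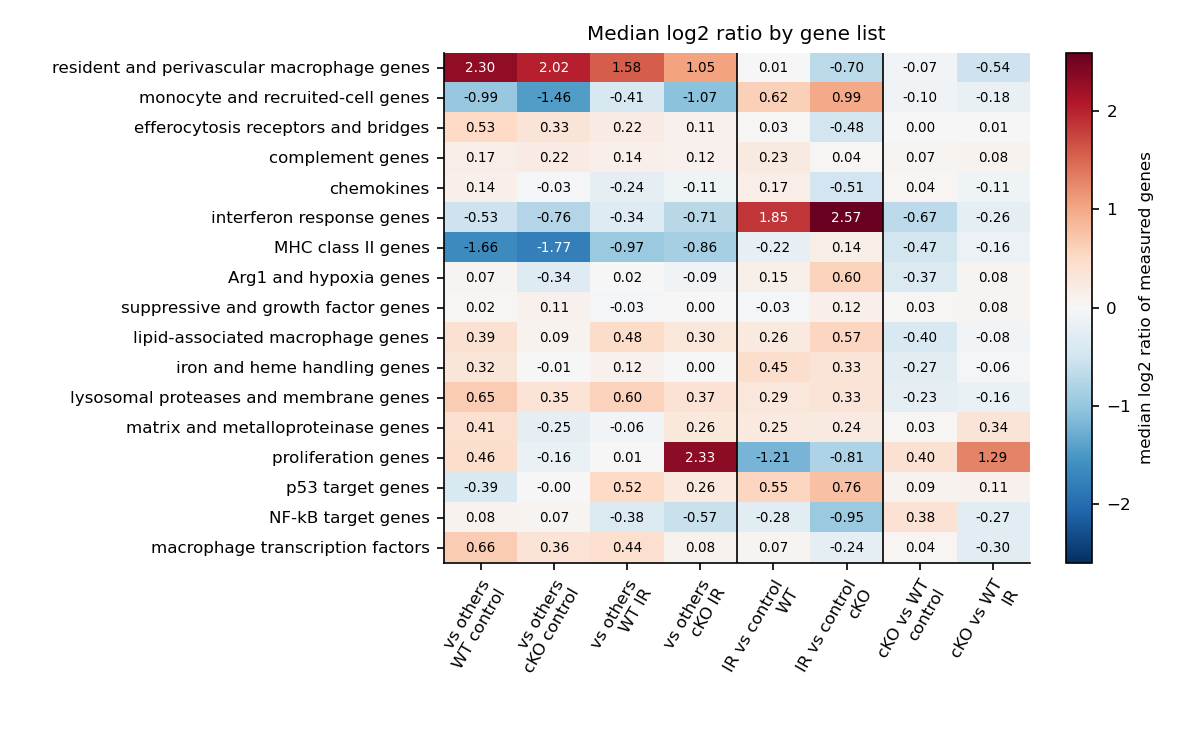
Rows are gene lists, columns are the 4 contrasts of Folr2 macrophages against other macrophages, the 2 IR contrasts and the 2 genotype contrasts, and each cell gives the median log2 ratio of the measured genes of the list (red higher, blue lower). The resident list is at 1.05 to 2.30 and class II genes at −1.77 to −0.86 against other macrophages, interferon response genes are at 1.85 and 2.57 in the IR contrasts, and the proliferation values of 2.33 and 1.29 in cKO IR fall to −0.35 and −0.09 without the members rich in fibroblast RNA.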

How the data were processed

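Cells of 5 mice per genotype were pooled per tissue and treatment, marked by hashtag antibodies, and both genotypes ran together in 1 droplet library per tissue and treatment, with genes and hashtags read side by side (CITE-seq). The authors deposited UMI counts per barcode and gene. The submitters' processing notes name Cell Ranger 6.0.1 and Seurat 4.0.6, while the header of the deposited count matrices names Cell Ranger 4, and the genome was mm10 with GENCODE vM23. Gene positions were taken from GENCODE vM21 on the same build.

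Barcodes were kept with at least 500 gene UMIs, 200 genes and 20 hashtag UMIs and at most 25% mitochondrial UMIs. They were labelled WT if the count of B0301 was at least that of B0302, and cKO if the count of B0302 was at least 4 times that of B0301. With that margin for both labels, WT control members went from 128 to 91 and WT IR members from 26 to 16. Of the genes past the limit for IR under the WT label, 91 of 179 higher and 224 of 421 lower were then shared. No doublets were removed in the values reported. Counts were summed over the cells of a pool and divided by their total. Ratios used 1 added UMI scaled to depth, an exact conditional binomial interval, a minimum of 50 UMIs in both groups together and a limit of 1 on the log2 scale. With 1 pool per group no test was made. PCR and sampling of mice add error that the intervals do not cover.

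The members and the gene lists were chosen with earlier results of these data known. Named genes were, besides the genes of the rule and list members, the 15 highest and 10 lowest against other macrophages, and up to 10 higher and 10 lower in the IR and genotype contrasts, past the limit in every pool or in both contrasts and ordered by the interval bound nearest 0 in the weakest of them. Predicted, Rik, mitochondrial and ribosomal genes were left out, and 1 gene lower in both IR contrasts is not reported here. The listed symbols Ly6a2, Mx1 and Mx2 were not analysed here. Alternatives changed the hashtag rule, the mitochondrial limit, doublets (6% highest Scrublet scores), the rule, the depth, the gene minimum, the scaling (TMM factors from edgeR) and the comparators. The scripts were tested on simulated data. Versions were Python 3.11.15, numpy 2.4.6, scipy 1.17.1, pandas 2.3.3, scanpy 1.11.5, matplotlib 3.10.9, R 4.3.3, Seurat 5.3.0 and edgeR 4.0.16.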

Additional observations from a re-analysis of the deposited data

Results flagged for a closer look

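Genes past the limit with opposite signs under the same contrast were singled out, and the differences between the contrasts were not tested. Between IR and control members, Lpl, a lipase, had a log2 ratio of 1.745 under the WT label and −1.304 under the cKO label, with 20 of its 22 UMIs in WT IR in 1 cell. Ly6i had −2.664 and 3.277, from 1 UMI in WT IR. The noncoding host genes Snhg1 and Snhg6 had −1.072 and 1.965, and −1.484 and 1.212, with 93 of 115 and 64 of 98 UMIs of cKO IR in 1 cell. Between cKO and WT members, Ly6i had −2.156 in control tumors and 3.565 in irradiated tumors.

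Barcodes outside the comparisons also met the gene conditions of the rule. In the control and irradiated tumor libraries, 79 and 267 such barcodes had under 20 hashtag UMIs, and 37 and 16 had enough hashtag UMIs but met neither label. How many of those with under 20 hashtag UMIs repeat member barcodes of the other tumor library was not tested.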

How the results depend on the processing

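Of 133 recomputed shares and counts of genes, 103 moved by less than their interval or 1.5 times and 30 moved further. A change of direction was not scored for them. The order of the 2 IR shares turned with Folr2 and Fcrls alone in the rule. Against other macrophages, 40 genes higher and 29 lower became 22 and 60 with TMM factors. Of 969 values of named genes, 766 stayed within these bounds, 191 moved and 12 changed sign. After thinning to 5000 UMIs, 19 of 25 named genes stayed past the limit in every pool against other macrophages. In both contrasts, 7 of 20 did so for IR and 2 of 14 for genotype. With a rule sum of 10, the shares were 14.4% (WT control), 20.02% (cKO control) and 5.675% (cKO IR). With cells thinned to 5000 UMIs they were 15.81%, 23.52% and 6.161%, and the genes past the limit were 183 and 479 for IR under the WT and cKO labels and 70 and 38 for genotype in control and irradiated tumors. A gene minimum of 20 UMIs gave 1291, 1351, 407 and 572 for the same contrasts and 120 against other macrophages, and depth-matched comparators gave 28. The genotype count in irradiated tumors was 89 without the highest Scrublet scores and 83 without barcodes of 3 or more collagen UMIs. These gene counts rest on unlike numbers of measured genes and are not shares.

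The following were chosen after seeing the data. Without Ccl8 in the rule, the shares were 13.93%, 26.36%, 1.933% and 2.248% and the irradiated genotype count 46. With Folr2 and Fcrls alone, they were 11.58%, 23.8%, 1.757% and 1.606%, with 1215 genes for IR under the cKO label and 41 for genotype. Named genes still past the limit throughout were then 22 of 25 against other macrophages, 13 of 20 for IR and 5 of 14 for genotype. Without members of 20 or more fibroblast-marker UMIs, the genotype count was 83. These last settings leave fewer cells, and otherwise the cause was not tested.

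Sign changes, on the log2 scale in the weaker contrast, were S100a8 at −0.03373 without members of 3 or more neutrophil-marker UMIs, and Areg at −0.3422 and Plac8 at 0.8214 after thinning. S100a8 is itself among those markers. Plac8 was at 0.7085 without Ccl8 and 0.2808 with Folr2 and Fcrls alone. Pclaf was at −2.295 without the highest Scrublet scores, −2.298 without collagen-rich or fibroblast-rich barcodes, −2.633 without Ccl8 and −2.526 with Folr2 and Fcrls alone. Ifitm1 was at 0.6862 with a rule sum of 10 and 0.8631 without hashtags in both libraries.

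No paired analysis was possible because each group was 1 pool and no test was made. Depth limits the WT IR pool most, where 3 UMIs correspond to 11.6 CPM.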
